A study of Mus musculus with 15 samples.

Results

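The 9 imprinted genes of growth control chosen here, H19, Dlk1, Meg3, Peg3, Mest, Plagl1, Ndn, Grb10 and Zim1, were followed over the 5 groups of cultured mouse mammary epithelial cells. Members were the probe sets annotated with exactly 1 of these gene symbols, and 8 of the 9 genes had such a probe set, 1 each, among the 19938 genes measured. H19 has no probe set of its own name and was not analysed here. The cells came from female mice of 8 weeks and were grown in medium with EGF, insulin, cholera toxin and hydrocortisone. The groups, of 3 Affymetrix arrays each, were wild type (WT), p53 knockout (p53-), double knockout of p53 and Rb (p53- Rb-), p53 knockout with MYC overexpression (p53- Myc+), and the combination of both knockouts with MYC (p53- Rb- Myc+). Cre recombinase from an adenovirus made the deletions and a retrovirus carried MYC, and all groups but WT share the loss of p53. The labels name neither the mouse strain nor the floxed alleles, do not say whether WT cells received a control virus, and leave unsaid whether the 3 arrays in a group stem from different animals or cultures. The p-values therefore reflect array-to-array spread, which may be partly technical.

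An imprinted gene is transcribed mainly from the copy inherited from 1 parent, and the choice is kept by DNA methylation laid down in the germ line. Genes expressed from the father's copy, such as Dlk1, Peg3, Mest, Plagl1 and Ndn, often favour fetal growth or progenitor states, and genes expressed from the mother's copy, such as H19, Meg3, Grb10 and Zim1, often restrain growth. Many of them are highly expressed in embryonic mesoderm and are turned down after birth. The arrays sum the RNA of both parental copies, so imprinting itself was not measured.

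The values are intensities on a linear scale as the authors deposited them. Changes are log2 fold changes of the intensity plus 16, with their standard error, from 1 limma fit over all 15 arrays, and a gene is said to have risen or fallen where its p, adjusted by Benjamini-Hochberg over all 19938 genes, was under 0.05. Array medians over all 35556 probe sets lay between 41.28 and 54.9, and 3 arrays a group set the precision. The Rb1 probe set fell from a mean of 161.5 in p53- to 57.39 in p53- Rb- arrays and from 36.43 in p53- Myc+ to 18.74 in p53- Rb- Myc+ arrays (limma, adjusted p = 1.64e-05 and 0.0453), but it was also already lower in p53- Myc+ arrays, which are labelled as having intact Rb, than in p53- Rb- arrays. The mouse Myc probe set lay at 128.2 and 96.29 in both groups labelled Myc+ against 855.7 to 929.8 in the other groups. Which parts of Rb1 and Myc these probes cover is not given in the sources used here, and directions below rest on the labels.

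The promoters of 4 members are shown. Peg3, Grb10 and Plagl1 were taken because their change with the Rb- label differed according to the Myc+ label, and Meg3 because its window shares a motif with that of Peg3, a choice made with the sequences in view. Each line gives the 250 bases before a RefSeq start site in build GRCm38.p6, 5′ to 3′, with words in capitals where 1 of 4 motifs matched on either strand. These are CACGTG (the E-box bound by MYC), TTTNNCGC (E2F), TGACGTCA (the cAMP response element) and GGGGCCCC (a palindrome bound by the Plagl1 protein). The motifs do not overlap in these windows, and the words were chosen with the sequences in view. Peg3 lies at chr7:6730420-6730669 (minus strand), Meg3 at chr12:109540746-109540995 (plus strand), Grb10 at chr11:12037421-12037670 (minus strand) and Plagl1 at chr10:13090582-13090831 (plus strand).
Peg3: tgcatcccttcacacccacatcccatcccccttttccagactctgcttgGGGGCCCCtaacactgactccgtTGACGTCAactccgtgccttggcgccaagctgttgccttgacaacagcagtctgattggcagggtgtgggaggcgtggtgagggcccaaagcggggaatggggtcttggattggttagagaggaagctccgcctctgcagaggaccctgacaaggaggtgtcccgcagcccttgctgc
Meg3: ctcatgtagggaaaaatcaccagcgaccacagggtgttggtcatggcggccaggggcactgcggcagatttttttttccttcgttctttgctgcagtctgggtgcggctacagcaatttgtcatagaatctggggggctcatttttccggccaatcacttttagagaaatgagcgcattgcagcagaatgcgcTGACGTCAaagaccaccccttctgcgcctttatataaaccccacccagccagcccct
Grb10: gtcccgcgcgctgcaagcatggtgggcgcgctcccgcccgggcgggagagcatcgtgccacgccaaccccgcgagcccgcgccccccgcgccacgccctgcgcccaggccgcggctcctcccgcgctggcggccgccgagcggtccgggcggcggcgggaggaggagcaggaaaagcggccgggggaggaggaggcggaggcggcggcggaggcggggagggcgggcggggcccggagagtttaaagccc
Plagl1: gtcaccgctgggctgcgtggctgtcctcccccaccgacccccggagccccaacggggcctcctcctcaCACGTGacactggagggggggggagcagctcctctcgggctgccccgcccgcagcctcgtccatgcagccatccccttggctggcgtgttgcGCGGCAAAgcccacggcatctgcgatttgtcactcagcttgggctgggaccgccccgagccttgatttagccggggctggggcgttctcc

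The Peg3 window held 1 TGACGTCA and 1 GGGGCCCC, and the Meg3 window 1 TGACGTCA. The Plagl1 window held 1 CACGTG and 1 TTTNNCGC on the reverse strand. The Grb10 window held none of the 4 words but held 40 CG pairs, against a median of 6 over 32817 listed promoters. Of these promoters, 6.02% held CACGTG, 4.28% TTTNNCGC, 1.55% TGACGTCA and 0.884% GGGGCCCC. A match describes letters only. Grb10 and Meg3 have a second RefSeq start site each, whose windows hold 8 and 0 CG pairs and none of the 4 words. The windows of Dlk1, Ndn and Zim1 and the 3 windows of Mest held none of them either.

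**Figure D1:**
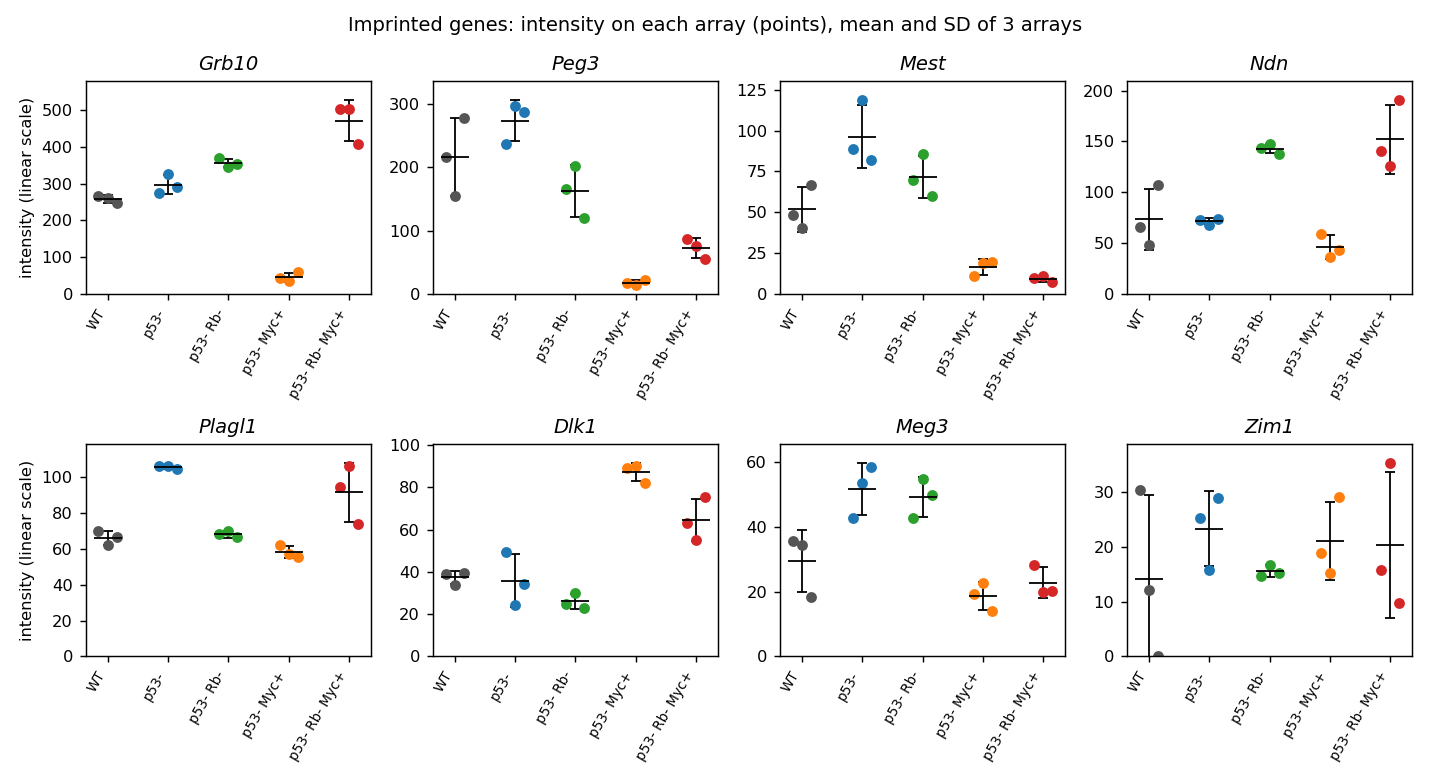
Intensity (linear scale, y axis from 0) of the 8 measured imprinted genes on each of the 15 arrays, by group, with points for single arrays, a bar for the group mean and whiskers for the SD (n = 3; the lower whisker of Zim1 in WT is clipped at 0). Grb10 had a mean of 45.03 in p53- Myc+ arrays and of 470.9 in the p53- Rb- Myc+ group, and Mest was low in both groups labelled Myc+.

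Among the 8 genes, Grb10 had the smallest p between both groups labelled Myc+. It encodes an adaptor that binds the insulin and IGF1 receptors and dampens their signal. Its intensity was 265.8, 260.3 and 245.8 in WT arrays (257.3 ± 10.4, mean ± SD, n = 3), 274.9, 326.5 and 289.7 in p53- arrays (297.1 ± 26.6) and 368.9, 346.2 and 352.7 in p53- Rb- arrays (356.0 ± 11.7). The p53- Myc+ arrays read 43.38, 33.62 and 58.08 (45.03 ± 12.3). The p53- Rb- Myc+ arrays read 502.0, 504.2 and 406.7 (470.9 ± 55.6). The groups did not overlap at any step of this order, from p53- Myc+ as the lowest through WT, p53- and p53- Rb- to p53- Rb- Myc+ as the highest. With Myc+, Grb10 fell by 2.37 ± 0.16 (log2) relative to p53- arrays (adjusted p = 6.31e-11), a ratio of mean intensities of 6.6. It rose by 3.01 ± 0.16 from p53- Myc+ to p53- Rb- Myc+ arrays (adjusted p = 2.08e-11), a ratio of 10.5, and ranked 9 of the 19938 genes by p in that comparison. With the Rb- label alone the change was 0.25 ± 0.16 (adjusted p = 0.293), which passed with array weights (0.32, adjusted p = 0.0345), and the gap between both Rb- effects was 2.76 ± 0.23 (adjusted p = 4.29e-08). Its changes from WT to p53- (0.19 ± 0.16, adjusted p = 0.398) and from p53- Rb- to p53- Rb- Myc+ arrays (0.38 ± 0.16, adjusted p = 0.0726) did not pass. The last of these passed in 6 of 26 alternatives, among them centring (adjusted p = 0.0375), quantile normalization (0.0261) and leaving out p53- Rb- Myc+ replicate 3 (0.0434). The sources used here do not tell Grb10 transcript forms apart.

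Peg3, a zinc finger gene expressed from the father's copy and known from maternal behaviour and p53-linked cell death, had a like drop with a partial return. For both genes the drop with Myc+ and the rise with Rb- share the p53- Myc+ arrays, so they are not independent. Peg3 lay at 216.3, 154.6 and 278.8 in WT arrays, 237.1, 296.4 and 288.0 in p53- arrays and 165.2, 202.6 and 120.6 in p53- Rb- arrays. It was 16.54, 14.45 and 22.52 on the p53- Myc+ arrays. The p53- Rb- Myc+ arrays gave 86.17, 74.96 and 54.88. They lay above all p53- Myc+ arrays and below all 9 arrays without Myc+, while WT arrays overlapped both p53- and p53- Rb- arrays. Peg3 fell by 3.10 ± 0.21 from p53- to p53- Myc+ arrays (adjusted p = 4.08e-11), a ratio of means of 15.4, and rose by 1.37 ± 0.21 from there to p53- Rb- Myc+ arrays (adjusted p = 0.000119), a ratio of 4.04. It fell by 0.72 ± 0.21 with the Rb- label without Myc+ (adjusted p = 0.0182), so both Rb comparisons went opposite ways, and they differed by 2.09 ± 0.29 (adjusted p = 5.04e-05). Among arrays labelled Rb-, it also fell by 1.01 ± 0.21 with Myc+ (adjusted p = 0.000483), and its change with p53 loss was 0.35 ± 0.21 (adjusted p = 0.22). The fall with the Rb- label alone was lost with 1 added before the logarithm (adjusted p = 0.0657), without p53- replicate 3 (0.0754) and without p53- Rb- replicate 3 (0.132). Since low intensities are compressed by the added 16, the change with Myc+ was -3.88 with 1 added and -2.04 with 64 added, and that with Rb- in cells labelled Myc+ 1.95 and 0.73.

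Plagl1 encodes a zinc finger factor that can arrest the cell cycle and is known to regulate other imprinted genes. WT arrays read 69.68, 62.07 and 66.61, p53- arrays 106.2, 105.8 and 104.4, and p53- Rb- arrays 67.96, 69.88 and 66.24. The p53- Myc+ arrays read 62.1, 57.29 and 55.43 and the p53- Rb- Myc+ arrays 94.21, 106.1 and 73.8. The p53- arrays stood above WT, p53- Rb- and p53- Myc+ arrays, which lay close together, and overlapped p53- Rb- Myc+ arrays. Plagl1 rose by 0.57 ± 0.15 with p53 loss (adjusted p = 0.00709), fell by 0.53 ± 0.15 from p53- to p53- Rb- arrays (adjusted p = 0.015) and fell by 0.71 ± 0.15 from p53- to p53- Myc+ arrays (adjusted p = 0.000623). These 3 comparisons share the p53- arrays. It rose by 0.52 ± 0.15 from p53- Myc+ to p53- Rb- Myc+ arrays (adjusted p = 0.0465). This call did not hold in 15 of 26 alternatives, over which the adjusted p ranged between 0.0161 and 0.254. The replicate block was among them (adjusted p = 0.0552). Replicate numbers were taken to pair the arrays in this comparison, but the block spanned all 5 groups. A fit that pairs only these 2 groups was not run. Leaving out any single p53- Myc+ array, or p53- Rb- Myc+ replicate 1 or 2, ended that call, with adjusted p of 0.0796, 0.111 and 0.125 for the p53- Myc+ arrays and 0.153 and 0.254 for the others. Its fall with the Rb- label alone was lost when replicate 3 of p53- (adjusted p = 0.0507) or of p53- Rb- (0.0532) was left out. The difference between both changes with the Rb- label was 1.05 ± 0.21 (adjusted p = 0.00193) and passed in every alternative run. Myc+ among arrays labelled Rb- gave 0.34 ± 0.15 (adjusted p = 0.079), which passed in 6 of 26 alternatives, centring (adjusted p = 0.0304) and leaving out p53- Rb- Myc+ replicate 3 (0.027) among them.

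Ndn encodes necdin, a protein that binds E2F1 and p53 and restrains proliferation. Its intensity was 65.58, 47.87 and 106.8 in WT arrays and 72.91, 67.79 and 73.4 in p53- arrays. The p53- Rb- arrays gave 143.8, 147.0 and 138.0, the p53- Myc+ arrays 58.84, 35.8 and 43.11, and the p53- Rb- Myc+ arrays 140.2, 125.7 and 190.4. The 6 arrays labelled Rb- were above all 9 others and overlapped each other. Ndn rose with the Rb- label by 0.86 ± 0.21 without Myc+ (adjusted p = 0.00493) and by 1.44 ± 0.21 with Myc+ (adjusted p = 5.06e-05), and these calls held in every alternative run. Whether both rises differ in size was not settled, at a difference of 0.58 ± 0.29 (adjusted p = 0.198). The change with Myc+ was -0.51 ± 0.21 among arrays with the Rb label intact (adjusted p = 0.0588), with adjusted p from 0.0248 to 0.281 over 26 alternatives, and 0.06 ± 0.21 among arrays labelled Rb- (adjusted p = 0.838). Against WT, p53- arrays differed by 0.02 ± 0.21 (adjusted p = 0.955).

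**Figure D2:**
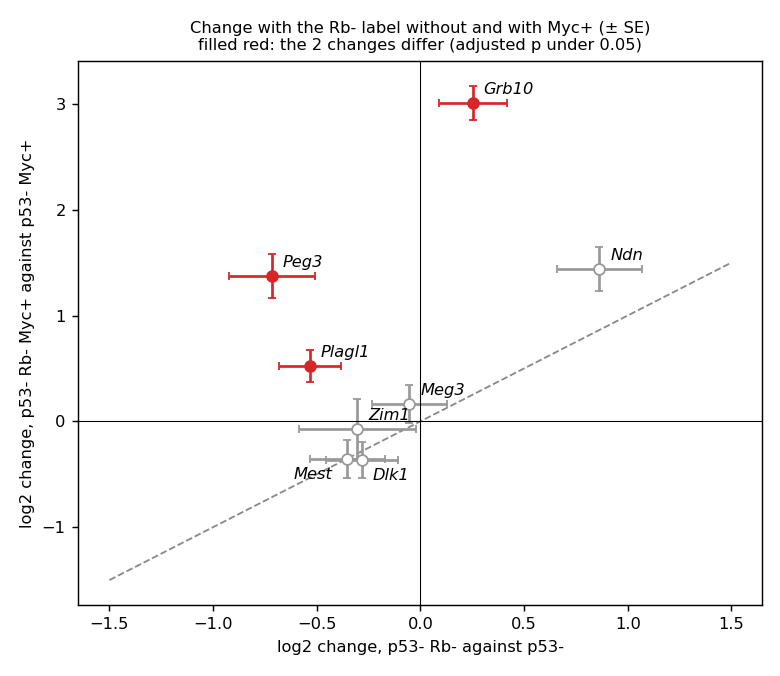
Log2 change with the Rb- label without Myc+ (x axis) and with Myc+ (y axis) for the 8 genes, with SE bars; the dashed line marks equal changes and filled red points mark genes whose 2 changes differed in the fit (Grb10, Peg3 and Plagl1). Ndn rose on both axes, at 0.86 and 1.44.

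Of the 8 genes, 4 passed with the Rb- label in cells labelled Myc+ and all 4 rose (Grb10, Ndn, Peg3 and Plagl1). Of all genes 4.69% passed there, 3.29% upward and 1.4% downward. The median change was 0.34 over the 8 genes, against 0.05 over all genes. Plagl1 lost its call in 15 of 26 alternatives, among them the replicate block (limma, adjusted p = 0.0552), and over the alternatives the count was 3 or 4. Without Myc+, 3 of 8 passed with the Rb- label, Ndn upward and Peg3 and Plagl1 downward, where 19.8% of all genes passed (9.36% up, 10.4% down), with medians of -0.29 and -0.08. This count was 1 without p53- replicate 3 or p53- Rb- replicate 3 and 5 with array weights. The difference of both Rb comparisons passed for 3 of 8, all positive, against 13.6% of all genes (8.78% positive, 4.86% negative). The 2 Rb comparisons share no arrays. Beside the rises with the Rb- label in cells labelled Myc+, 6 of 15 fibroblast markers fell and none of the 15 rose, 2 of 16 luminal and 1 of 12 basal markers rose and none of these fell. The summed intensity of the fibroblast list was 9103 to 9851 without and 7017 to 7792 with the Rb- label, and that of the luminal list 414.4 to 482.2 and 837.4 to 934.1. The sum of the basal list was lower with the Rb- label, at 2348 to 2677 without and 1965 to 2212 with it. Without Myc+, 11 of 15 fibroblast markers rose with Rb-, and their sum was 6020 to 6512 in p53- and 11070 to 14380 in p53- Rb- arrays. The part of these shifts in the changes with Rb- was not tested.

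Mest and the pair Dlk1 and Meg3 changed mainly with the Myc+ label. Mest, which is expressed from the father's copy and encodes a hydrolase-like protein linked to mesoderm and fat cell growth, was 48.46, 40.05 and 66.78 in WT arrays, 88.51, 118.5 and 81.98 in p53- arrays and 69.7, 85.6 and 60.06 in p53- Rb- arrays. The p53- Myc+ arrays read 11.03, 18.96 and 19.18 and the p53- Rb- Myc+ arrays 9.55, 10.61 and 7.294, so the arrays labelled Myc+ were all lower than the rest. Mest rose by 0.73 ± 0.18 in p53- over WT arrays (adjusted p = 0.00465). It fell with Myc+ by 1.79 ± 0.18 among arrays with the Rb label intact (adjusted p = 4.24e-08) and by 1.80 ± 0.18 among arrays labelled Rb- (adjusted p = 4.31e-08). The size of these 2 falls depends on the added constant: they were -2.51 and -2.84 with 1 added and -0.99 and -0.89 with 64 added. Its changes for the Rb- label were -0.35 ± 0.18 without Myc+ (adjusted p = 0.183) and -0.36 ± 0.18 with it (adjusted p = 0.381), with no difference beyond its error (-0.00 ± 0.26, adjusted p = 0.995).

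Dlk1 and Meg3 are neighbours in 1 imprinted domain and are expressed from opposite parental copies. Dlk1 encodes a Notch-related membrane protein that holds preadipocytes undifferentiated, and Meg3 is a long non-coding RNA. Dlk1 was 38.84, 33.7 and 39.73 in WT, 49.3, 24.45 and 34.14 in p53-, and 24.87, 30.11 and 23.11 in p53- Rb- arrays, which overlap in that order. The p53- Myc+ arrays gave 89.31, 90.15 and 82.29 and the p53- Rb- Myc+ arrays 63.33, 55.32 and 75.3, above all 9 others. Dlk1 rose with Myc+ by 1.02 ± 0.17 (adjusted p = 5.47e-05) and, among arrays labelled Rb-, by 0.94 ± 0.17 (adjusted p = 0.000144). It was the 1 member that rose with Myc+ in either setting, and its other 3 changes were -0.07 ± 0.17 in p53- against WT (adjusted p = 0.805), -0.28 ± 0.17 for the Rb- label alone (adjusted p = 0.26) and -0.36 ± 0.17 with the Rb- label in cells labelled Myc+ (adjusted p = 0.324), where the p53- Rb- Myc+ arrays all lay lower. The change with Rb- alone passed with array weights (-0.37, adjusted p = 0.0235). Beside the rise of Dlk1, the summed intensity of 8 adipocyte and preadipocyte markers was 537.2 to 683.6 in p53- and 1090 to 1170 in p53- Myc+ arrays, and 737.5 to 819.8 in p53- Rb- against 1028 to 1222 in p53- Rb- Myc+ arrays. Of these markers 2 rose and 2 fell with Myc+, and 1 rose and 1 fell with Myc+ among arrays labelled Rb-. Their part in the rise was not tested.

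Meg3 moved the other way. WT arrays gave 35.52, 34.29 and 18.26, p53- arrays 42.83, 53.59 and 58.47, and p53- Rb- arrays 42.61, 54.8 and 49.83. The p53- Myc+ arrays gave 19.14, 22.55 and 14.09, and the p53- Rb- Myc+ arrays 28.23, 19.91 and 20.18. The p53- and p53- Rb- arrays were above all others, and WT overlapped the arrays labelled Myc+ through its replicate 3. Meg3 fell with Myc+ by 0.97 ± 0.18 (adjusted p = 0.000161) and, among arrays labelled Rb-, by 0.75 ± 0.18 (adjusted p = 0.00203). Its rise with p53 loss (0.59 ± 0.18, adjusted p = 0.0161) was lost without WT replicate 3 (adjusted p = 0.0988), without p53- replicate 3 (0.0827) and with quantile normalization (0.0517). For the Rb- label its change was -0.05 ± 0.18 without Myc+ (adjusted p = 0.866) and 0.17 ± 0.18 with it (adjusted p = 0.759). On each of the 15 arrays Meg3 lay below that array's median over the 19938 genes, which differs from the median over all probe sets given above.

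Zim1, a zinc finger gene beside Peg3 that is expressed from the mother's copy, did not pass in any comparison. The WT arrays read 30.43, 12.07 and 0.01071, the p53- arrays 25.29, 15.84 and 29.06, and the p53- Rb- arrays 14.75, 16.81 and 15.24. The p53- Myc+ arrays read 18.87, 15.28 and 29.16 and the p53- Rb- Myc+ arrays 15.84, 35.38 and 9.826. Neighbours in the order of the group means overlapped throughout. Changes lay between -0.30 ± 0.28 with the Rb- label alone (adjusted p = 0.476) and 0.50 ± 0.28 with p53 loss (adjusted p = 0.188). Zim1 was below the median of the 19938 genes on all arrays. Its change with p53 loss was 0.88 without WT replicate 1 (adjusted p = 0.0202) and 0.11 without WT replicate 3 (adjusted p = 0.786), the array that read 0.01071.

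**Figure D3:**
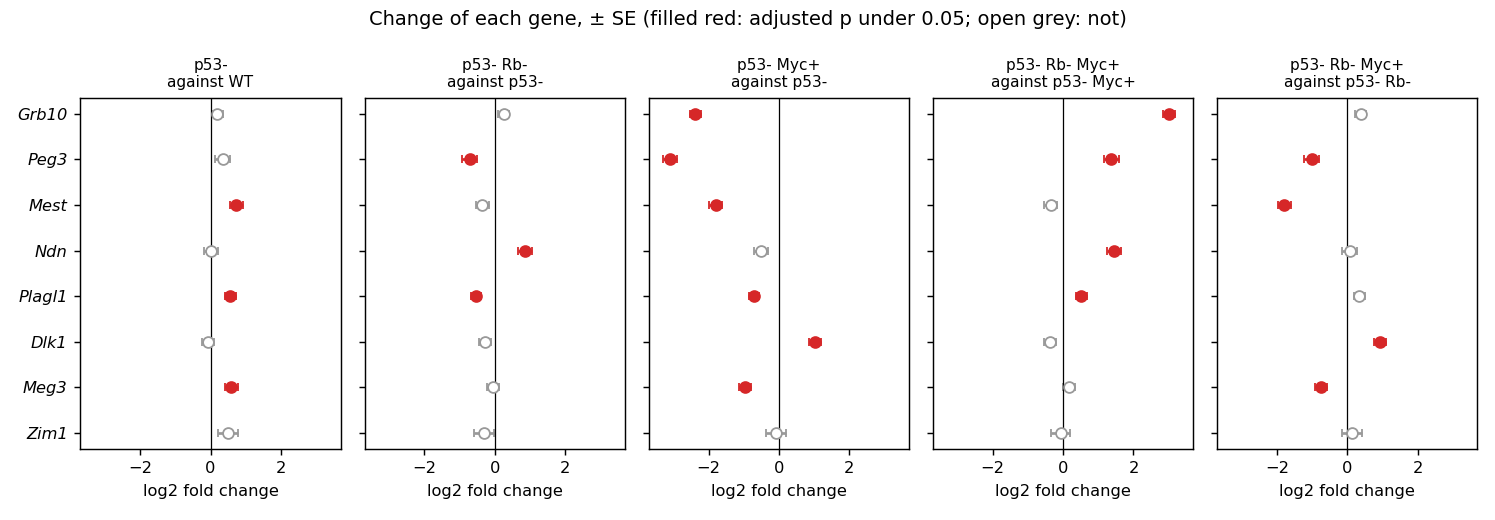
Log2 fold change (x axis, of intensity plus 16) with SE for the 8 genes in the 5 comparisons of 2 groups; filled red points passed at an adjusted p under 0.05. With Myc+ in the third panel Peg3 (-3.10), Grb10 (-2.37), Mest (-1.79), Meg3 (-0.97) and Plagl1 (-0.71) lie left of 0 and Dlk1 (1.02) right of it.

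With Myc+ among arrays with the Rb label intact, 6 of 8 genes passed, of which Dlk1 rose and Peg3, Grb10, Mest, Meg3 and Plagl1 fell, where 33.3% of all genes passed (13.1% up, 20.2% down). The median of the 8 was -0.84, against -0.09 over all genes, a value that became 0.11 with each array centred on its median. Among arrays labelled Rb-, 4 of 8 passed (Dlk1 up, Mest, Peg3 and Meg3 down), where 36.3% of all genes passed (17.6% up, 18.7% down), with medians of 0.10 and 0.12. With p53 loss 3 of 8 passed and rose (Mest, Meg3 and Plagl1), where 29% of all genes passed (19.3% up, 9.72% down), with medians of 0.42 and 0.12. The upward share of all calls depends on scaling: with centring it went from 66.5% to 52.5% for p53 loss, from 39.2% to 59.2% with Myc+, from 70.2% to 55.8% for Rb- in cells labelled Myc+ and from 64.4% to 45.1% for the difference. Quantile normalization gave 51.6%, 56.2%, 59.4% and 53.7%. The arrays of both groups did not overlap for 4 of 8 genes with p53 loss and 4 with the Rb- label, where this held for 40.3% and 40% of all genes. It held for 7 with Myc+ (42.6% of all genes), 6 for Rb- in cells labelled Myc+ (20.5%) and 6 for Myc+ among arrays labelled Rb- (51.2%). An effect of the adenovirus cannot be told apart from that of p53 loss. No group is labelled as carrying a retrovirus without MYC, so an effect of the retrovirus cannot be told apart from that of MYC. Of 8 leukocyte markers 4 fell and 1 rose with p53 loss, with sums of 2066 to 2469 in WT and 621.2 to 755.9 in p53- arrays, and 6 of 15 fibroblast markers fell and 2 rose. Of the luminal markers 5 of 16 fell and of the basal ones 3 of 12, with no rise in either list. The part of these lists in the changes with p53 loss was not tested. The summed intensity of 16 luminal markers was 16360 to 18920 in p53- and 17090 to 18030 in p53- Rb- arrays, against 414.4 to 482.2 and 837.4 to 934.1 in the matching groups labelled Myc+. Of these markers 13 fell with Myc+ in both settings. Epcam, Elf3, Gata3, Prom1, Cldn4 and Cldn7, 6 of the 16 and named for this, were below 16 on all arrays labelled Myc+. Each of the other luminal markers reached 16 on at least 1 of these arrays, and no background level was estimated. The low level of these 6 goes against the label of epithelial cells, but the list as a whole was not below 16. Basal markers fell in 9 of 12 and rose in 1, and the sum of 15 fibroblast markers went from 6020 to 6512 in p53- up to 9103 to 9851 in p53- Myc+ arrays, with 9 rising and 3 falling, but from 11070 to 14380 in p53- Rb- down to 7017 to 7792 in p53- Rb- Myc+ arrays. With Myc+ 5 of 8 endothelial and 4 of 8 leukocyte markers fell, and 4 and 3 of 8 among arrays labelled Rb-. In bulk samples fewer cells of a type and less RNA per cell cannot be told apart, and the part of these markers in the changes with Myc+ was not tested.

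The neighbours of the 8 genes were listed to see whether whole domains moved. Of 22 genes of the same imprinted domains 14 were measured. With Myc+ 4 of them fell and 0 rose in each setting (28.6% of 14), below the 33.3% and 36.3% of all genes that passed. With p53 loss 2 rose and 2 fell (28.6%, against 29% of all genes). With the Rb- label 1 rose without Myc+ and 1 with it (7.14% each, against 19.8% and 4.69% of all genes). Igf2, the fetal growth factor gene that shares a domain with H19, was the 1 that rose with Rb- in both settings. The WT arrays had a mean of 97.53 ± 16.1 (SD, n = 3), the p53- arrays 49.03 ± 20.1 and the p53- Rb- arrays 119.8 ± 8.33. With Myc+ the mean was 14.86 ± 7.11 without the Rb- label, which is under the added 16, and 36.76 ± 5.1 with both labels. It rose by 1.11 ± 0.21 (adjusted p = 0.000712) and 0.80 ± 0.21 (adjusted p = 0.025) with the Rb- label, fell by 1.06 ± 0.21 (adjusted p = 0.000311) and 1.37 ± 0.21 (adjusted p = 1.45e-05) with Myc+ and fell by 0.84 ± 0.21 with p53 loss (adjusted p = 0.00448).

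Beside Grb10, Cobl, an actin nucleator gene, fell by 2.02 ± 0.19 with Myc+ (adjusted p = 1.4e-08), as Grb10 did. Its change with the Rb- label in cells labelled Myc+ was 0.60 ± 0.19 (adjusted p = 0.0818), against 3.01 for Grb10, and whether the changes of both genes differ was not tested. All p53- Myc+ arrays read Cobl at or below 8.561, under the added 16, which compresses this change. The arrays of both groups did not overlap for Cobl, and the ratio of mean intensities was 2.74, against 10.5 for Grb10. Ddc, the decarboxylase gene on the other side, did not pass with Myc+ (0.30 ± 0.18, adjusted p = 0.238). Beside Mest, the coatomer gene Copg2 fell by 1.11 ± 0.17 (adjusted p = 1.36e-05) and by 1.21 ± 0.17 among arrays labelled Rb- (adjusted p = 4.49e-06), while Klf14 changed by 0.22 ± 0.19 with Myc+ (adjusted p = 0.422). In the domain of Ndn, Magel2, Mkrn3 and Peg12 passed in none of the comparisons; with the Rb- label in cells labelled Myc+ they changed by 0.07 ± 0.17 (adjusted p = 0.912), 0.08 ± 0.19 (0.903) and 0.08 ± 0.18 (0.901). Usp29, which shares a promoter region with Peg3, changed by 0.01 ± 0.18 with Myc+ (adjusted p = 0.982). In the domain of Dlk1 and Meg3, the deiodinase gene Dio3 rose by 0.70 ± 0.17 with p53 loss (adjusted p = 0.00454) and fell by 0.69 ± 0.17 with Myc+ (adjusted p = 0.00324), from a mean of 12.91 ± 3.73 to 1.937 ± 2.91. All WT, p53- and p53- Myc+ arrays read Dio3 at or below 15.87, under the added 16 and near background, so these changes say little about its level. Rtl1, Rian and Begain did not pass in any comparison.

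**Figure D4:**
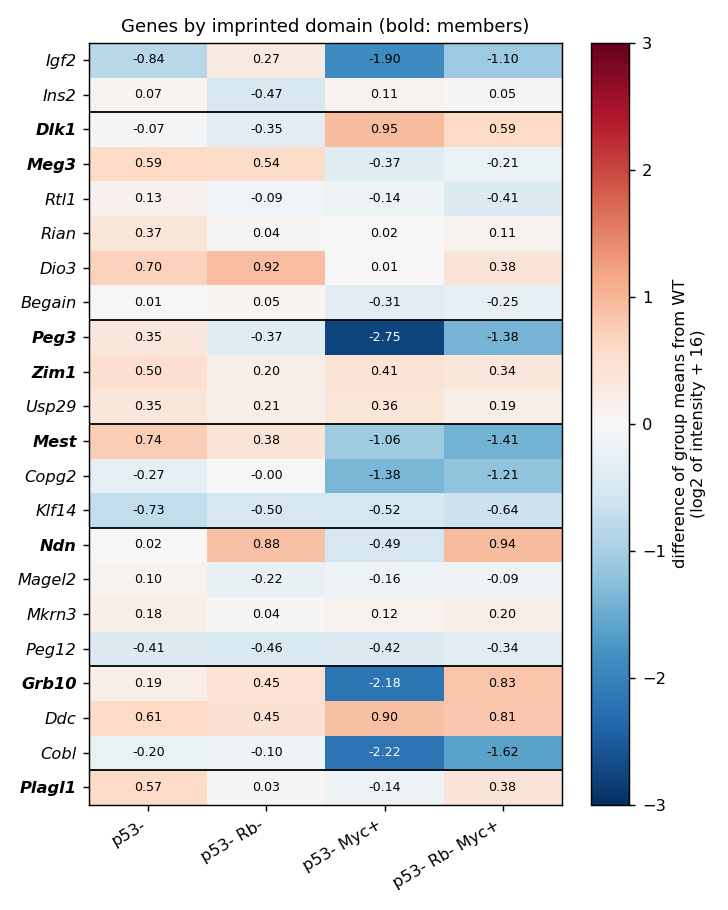
Difference of each group mean from WT (log2 of intensity plus 16, colour and printed number) for the 8 members in bold and their measured neighbours, grouped by imprinted domain; no test is shown. In p53- Myc+ arrays Peg3 (-2.75) and Grb10 (-2.18) stood low with Cobl (-2.22), and Usp29 (0.36) and Ddc (0.90) did not.

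Among 42 measured genes known to be imprinted in other domains, some in single tissues only, 18 fell and 4 rose with Myc+ (52.4% of 42, against 33.3% of all genes). Peg10, a retrotransposon-derived gene, rose from 126.3 ± 22.9 to 1319 ± 296 (3.22 ± 0.24, adjusted p = 3.32e-10). The brain proteolipid gene Nnat fell from 776.7 ± 232 to 36.92 ± 27.5 (-4.02 ± 0.28, adjusted p = 9.15e-11), and the paraoxonase gene Pon3 and the creatine synthesis gene Gatm fell by 2.86 and 2.47. Among arrays labelled Rb-, 19 fell and 3 rose with Myc+ (52.4%, against 36.3% of all genes), with Peg10 up by 2.79 and Nnat and Tfpi2 down by 5.07 and 5.11. Between both groups labelled Myc+, 4 rose and 3 fell with Rb- (16.7% of 42, against 4.69% of all genes). Ampd3, an AMP deaminase gene, rose most clearly by p, from 58.53 ± 9.67 to 242.8 ± 23.7 (1.80 ± 0.18, adjusted p = 3.29e-07), and both Rb comparisons differed by 1.36 ± 0.26 (adjusted p = 0.00111). With p53 loss 10 rose and 4 fell, and with the Rb- label alone the counts were equal (33.3% of 42 each, against 29% and 19.8% of all genes). Gatm rose by 1.40 with p53 loss and fell by 0.71 with the Rb- label, 2 comparisons that share the p53- arrays.

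The genes most like the 3 members with the widest range of group means were sought among 9965 other genes at or above the median level, by Pearson's r over the 15 arrays on the log2 scale, as a description. For Grb10 these were Cav1, the caveolin gene (r = 0.979), Ackr3 (0.974) and Ampd3 (0.962). Between both groups labelled Myc+, the mean of Cav1 went from 174.2 to 1056 with Rb-. For Peg3 they were the laminin receptor gene Itga6 (0.979), Dock9 (0.976) and Rras2 (0.975), and for Mest Igsf9 (0.984), the ephrin gene Efnb2 (0.982) and Shroom4 (0.981). The arrays fall into groups that all genes share, and over deviations from the group means the same r was 0.292, 0.244 and 0.477 for Grb10, 0.681, 0.243 and 0.9 for Peg3, and 0.864, 0.674 and 0.647 for Mest.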

How the data were processed

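Intensities per probe set on Affymetrix Mouse Gene arrays were made by the authors; the submitters' processing notes name Affymetrix Expression Console 1.1. Summarisation, normalization and any centring: not given in the sources used here. RNA was amplified with a WT-Ovation Pico kit, per the labels' protocols. The deposited intensity values are linear (4.11e-05 to 8348.1). Of 35556 probe sets, 21789 named 1 gene, 1621 several and 12146 none in the platform annotation; 21698 symbols were checked by Entrez number and 0 changed. For each of 19938 genes the brightest probe set by mean was kept. log2(intensity + 16) of the deposited values was fitted as group means over 15 arrays with limma 3.58.1 in R 4.3.3 (lmFit, eBayes, 2-sided, 10 residual degrees of freedom), after a check on simulated data. The main design had no block.

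Same-number arrays of p53- Rb- Myc+ and p53- Myc+ deviated together (r = 0.102, 0.192 and 0.379), so the numbers were taken to pair them; this comes from the values, not the labels. The other 4 comparisons were not taken as paired, and no cutoff of r is given for this choice. From p53- Rb- to p53- Rb- Myc+ arrays r was also positive but smaller (0.036, 0.056 and 0.218), and the rest each had a negative r. Genes named outside the 9 members were the domain neighbours, up to 4 passing genes of each other list with the smallest p in a comparison, and the 3 genes most alike to each of 3 members. The 6 luminal markers named were chosen after their values were seen, for lying below 16 on all arrays labelled Myc+. Members and lists were chosen with earlier results of these data known. The alternatives were other added constants, centring, quantile normalization, a filter on low genes, fits of the compared groups alone, a replicate block, array weights, a variance trend, other probe set rules and leaving out each array.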

Additional observations from a re-analysis of the deposited data

Results flagged for a closer look

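For 3 genes the change with the Rb- label differed between cells without and with the Myc+ label in a test of the difference itself (limma, adjusted over all genes). It differed by 2.76 for Grb10, 2.09 for Peg3 and 1.05 for Plagl1 on the log2 scale, each higher with Myc+. The p53- Myc+ group had the lowest mean of the 5 groups for each gene, though its Plagl1 arrays overlapped WT. Its arrays enter the fall with Myc+, the rise with Rb- in cells labelled Myc+ and the difference itself, so these are not independent. Peg3 fell with Rb- alone (-0.72), a call lost in 3 of 26 alternatives, and rose with Rb- in cells labelled Myc+ (1.37). The matching values of Plagl1 were -0.53 and 0.52, of which the first did not hold in 2 and the second in 15 of 26 alternatives. Grb10 changed by 0.25 with Rb- alone, which passed with array weights and in none of its other 25 alternatives.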

How the results depend on the processing

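Of 48 changes of single genes (8 genes, 5 comparisons and the difference of both Rb comparisons), 23 passed. Of these, 19 kept their call in every alternative that gave a value, 4 lost it in 1 or more, and 0 reversed. Of the 25 that did not pass, 6 passed in 1 or more of the alternatives and 11 changed sign in 1 or more. The 4 genes below the median level (Dlk1, Meg3, Mest and Zim1) gave no value under the filter on low genes, where 1 gene passed with p53 loss in place of 3. With the Rb- label alone the count of 3 became 5 with array weights and ranged from 1 to 3 when single arrays were left out; besides these, no alternative moved a count of passing members by over 1.5 times.

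With the replicate block, Plagl1 lost its call with the Rb- label in cells labelled Myc+ (0.52, adjusted p = 0.0552) and Ndn passed with Myc+ (-0.51, adjusted p = 0.0417); it changed no other call. Sign changes of values that did not pass were as follows. Centring gave -0.0794 for Ndn with p53 loss, 0.0025 for Meg3 with the Rb- label and 0.11 for Zim1 with Myc+. Quantile normalization gave -0.0469, 0.0651 and 0.20 for the same 3, and -0.0087 for Meg3 and -0.088 for Zim1 in the difference of both Rb comparisons. Array weights gave 0.0085 for Dlk1 with p53 loss, and 64 added gave 0.10 for Mest in the difference. Leaving out single arrays, the ranges with a change of sign were -0.24 to 0.10 for Dlk1 and -0.20 to 0.27 for Ndn with p53 loss, -0.15 to 0.0206 for Meg3 with the Rb- label, -0.24 to 0.0255 for Zim1 with Myc+ and -0.35 to 0.14 for Zim1 with the Rb- label in cells labelled Myc+. From p53- Rb- to p53- Rb- Myc+ arrays they were -0.0947 to 0.18 for Ndn and -0.14 to 0.36 for Zim1, and in the difference of both Rb comparisons -0.26 to 0.0856 for Dlk1, -0.14 to 0.11 for Mest and -0.0507 to 0.45 for Zim1. Low intensities of Zim1 and Meg3, and of Mest on arrays labelled Myc+, limit what a change in them can show.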

Other observations

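Of 13 factors linked to setting or keeping imprints, 10 passed with the Myc+ label, 8 up and 2 down, where 33.3% of all genes passed. The DNA methyltransferase gene Dnmt1 rose by 0.78 ± 0.16 (limma, adjusted p = 0.000452), Setdb1, a histone methyltransferase gene, from 208.3 ± 10 to 376.3 ± 17.5 (SD, n = 3), and Dnmt3l from 16.96 ± 1.85 to 59.23 ± 2.11. Dnmt3a, which sets new methylation, fell from 146.1 ± 13.1 to 47.32 ± 3.41 (-1.36 ± 0.20, adjusted p = 7.24e-06) and rose by 0.72 ± 0.20 with the Rb- label in cells labelled Myc+ (adjusted p = 0.0337). With p53 loss 8 of 13 rose and none of the 13 fell, where 29% of all genes passed and 19.3% rose, led by Smchd1 (1.23 ± 0.18, adjusted p = 3.91e-05), which then fell by 0.94 with the Rb- label alone in a comparison that shares the p53- arrays. Among arrays labelled Rb-, 6 rose and 1 fell with Myc+ (53.8% of 13, against 36.3% of all genes). For the Rb- label alone 0 rose and 3 fell (23.1%, against 19.8%), and in cells labelled Myc+ 2 rose and 0 fell (15.4%, against 4.69%).

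Among 8 measured receptors, adaptors and RNA-binding genes of the insulin and IGF pathway, 4 fell with Myc+ (33.3% of all genes passed). Grb7, an adaptor gene of the same family as Grb10, fell from 192.2 ± 20 to 3.807 ± 3.24 and lay at 8.495 ± 5.74 in p53- Rb- Myc+ arrays; whether this differs from the change of Grb10 was not tested. The insulin receptor substrate gene Irs1 fell by 1.59 ± 0.16 (adjusted p = 3.63e-08). With the Rb- label in cells labelled Myc+, Igf2bp1, whose protein binds Igf2 and H19 RNA, rose from 25.83 ± 7.53 to 102.7 ± 13 (1.52 ± 0.18, adjusted p = 5.21e-06), and Grb14, the third family member, fell from 43.18 ± 10.8 to 10.03 ± 4.91 (-1.18 ± 0.20, adjusted p = 0.000529). Both differed between the settings of the Rb- label, by 1.80 ± 0.26 (adjusted p = 6.47e-05) for Igf2bp1 and by -1.24 ± 0.29 (adjusted p = 0.00592) for Grb14.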
